A study of Homo sapiens with 6 samples.

Results

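The genes of MHC class I antigen presentation were taken as the rows of the expression table named HLA-B, HLA-C, HLA-E, B2M, TAP1, TAP2, TAPBP, PSMB8, and PSMB9, which are 9 of its 46427 genes. Each of the 9 had reads in all 6 libraries. In A549, reads scaled for depth were lower after MALAT1 knockdown by more than 1.5-fold for HLA-B and HLA-C, against 11.4% of all genes. After scaling all 9 genes were below their control, where 49.3% of all genes were, and the counting interval of PSMB8 included 0. In H460 and H1299 the changes were within 1.5-fold and went both ways, except for a higher TAPBP in H1299. No member passed the test of si-MALAT1 against control over the 3 cell lines. Between the cell lines, 8 of the 9 genes were lower in A549 than in H460, where 19.3% of all genes tested were lower. Fewer members, and fewer of all genes, were called lower without the A549 si-MALAT1 library.

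Class I molecules show peptides from inside the cell to CD8 T cells and to natural killer cells. A heavy chain, such as HLA-B, HLA-C, or HLA-E, pairs with beta-2 microglobulin (B2M) in the endoplasmic reticulum and is loaded with a peptide before it moves to the cell surface. The peptides are cut by the proteasome, in which PSMB8 and PSMB9 can replace constitutive subunits, and are carried into the endoplasmic reticulum by the TAP1 and TAP2 transporter, to which tapasin (TAPBP) holds the empty heavy chain. Many of these genes are induced by interferon-gamma, and lung tumors are known to lose class I in a share of cases.

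RNA-seq was performed on 1 control and 1 si-MALAT1 library per line from H460, H1299, and A549, NSCLC cell lines that were established from human lung tumors. MALAT1 is a nuclear long noncoding RNA that is abundant in many tumors, and si-MALAT1 is a small interfering RNA against it, given by transient transfection. The labels call the controls non-treated, while the methods have si-Control cells as well as negative controls without naming the kind that was sequenced, so an effect of transfection cannot be told apart from one of MALAT1. The question of the comparison was which genes change when MALAT1 is lowered. With 1 library per cell line and condition, a change within a cell line had no replicate check and no p-value.

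The libraries held between 42506818 and 68515992 reads counted to genes, with the fewest in the A549 control and the most in the H460 control. MALAT1 fell in every cell line, from 231045 to 43858 reads for H460, from 407551 to 47935 for H1299, and from 93747 to 14447 for A549. Epithelial keratins KRT8 and KRT18 had 11408 or more reads in every library, but other epithelial markers were low in some lines, with 2 to 13 reads of CDH1 and 23 to 73 of EPCAM in H460 and H1299 and 17 and 21 of KRT19 in H1299. PTPRC and CD3E, which define leukocytes and T cells, and the endothelial CDH5 had 0 reads in all 6. The 7 leukocyte markers summed to between 14.7 and 34.6 FPKM (a level scaled for length and depth), mostly from 2 genes. CD68, a lysosomal gene that other cells also use, stood at 7.04 to 33.7 FPKM. CD14, a monocyte receptor, stood at 5.47 and 7.51 FPKM in H460 and at 3.33 and 6.78 in A549, where it had a log2 fold change of 1.01, the opposite direction to the members.

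Of the 9 genes, 8 lie on chromosome 6 within 2.82 megabases of the MHC, and B2M lies apart on chromosome 15, at chr15:44711492-44718145 (GRCh38, plus strand). HLA-B, at chr6:31353875-31357179, and HLA-C, at chr6:31268749-31272092, are 81782 bases apart on the minus strand, and HLA-E is at chr6:30489508-30494194 on the plus strand. TAP1, at chr6:32845209-32853704, and PSMB9, at chr6:32854192-32859851, start 487 bases from each other on opposite strands. PSMB8 (chr6:32840717-32844679) and TAP2 (chr6:32821833-32838770) follow TAP1 on the minus strand, and TAPBP is at chr6:33299694-33314387. The antisense RNA PSMB8-AS1 shares 456 exon bases with TAP1, 16.0% of its exon length, and had between 49 and 183 reads per library. Since it is not stated whether counting used the strand, some reads of TAP1 and PSMB8 could belong to it.

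The promoter bases of 5 members are shown because the regulatory elements of class I genes, bound by interferon factors, NF-kappaB, and the NLRC5 complex, lie just before the start site. Each is the RefSeq sequence of the 250 bases before the start, 5′ to 3′ on the strand of the gene, in GRCh38.p14. Capitals mark matches on either strand to an interferon-stimulated response element (GAAANNGAA), a kappaB element (GGGANNNCC), the TGACG core of the CRE or X2 box, and the CCAAT box (CCAAT). Overlapping matches run together. The windows are chr6:31357180-31357429 for HLA-B, chr6:31272093-31272342 for HLA-C, chr15:44711267-44711516 for B2M, chr6:32853705-32853954 for TAP1, and chr6:33314079-33314328 for TAPBP, with B2M on the plus strand and the others on the minus strand.
HLA-B: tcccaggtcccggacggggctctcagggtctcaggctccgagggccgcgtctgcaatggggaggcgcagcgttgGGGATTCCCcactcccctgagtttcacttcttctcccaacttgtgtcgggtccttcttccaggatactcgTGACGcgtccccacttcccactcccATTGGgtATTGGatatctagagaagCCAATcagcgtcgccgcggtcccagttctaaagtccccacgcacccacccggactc
HLA-C: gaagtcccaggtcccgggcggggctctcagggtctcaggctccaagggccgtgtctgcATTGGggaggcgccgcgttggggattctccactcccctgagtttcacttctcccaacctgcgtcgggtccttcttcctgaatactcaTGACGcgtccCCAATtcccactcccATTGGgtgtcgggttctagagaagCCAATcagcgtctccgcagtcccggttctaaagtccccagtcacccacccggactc
B2M: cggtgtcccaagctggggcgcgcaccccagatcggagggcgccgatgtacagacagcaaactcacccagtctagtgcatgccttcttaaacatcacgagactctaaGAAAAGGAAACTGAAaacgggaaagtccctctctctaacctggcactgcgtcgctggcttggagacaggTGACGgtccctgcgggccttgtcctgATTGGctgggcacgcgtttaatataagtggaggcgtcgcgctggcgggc
TAP1: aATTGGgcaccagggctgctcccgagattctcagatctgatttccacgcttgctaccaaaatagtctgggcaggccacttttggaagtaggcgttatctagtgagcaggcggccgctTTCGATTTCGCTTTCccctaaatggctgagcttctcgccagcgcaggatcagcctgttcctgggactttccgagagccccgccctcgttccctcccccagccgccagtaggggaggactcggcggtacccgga
TAPBP: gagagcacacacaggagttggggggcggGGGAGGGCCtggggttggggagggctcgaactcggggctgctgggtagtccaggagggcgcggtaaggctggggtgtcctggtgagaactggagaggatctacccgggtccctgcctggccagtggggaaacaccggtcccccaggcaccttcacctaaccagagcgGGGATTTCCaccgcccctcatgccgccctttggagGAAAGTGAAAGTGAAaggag

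The HLA-B and HLA-C promoters were the same at 226 of 246 aligned bases (91.9%). HLA-B held a kappaB match 176 bases before the start, and HLA-C held none by these letters. A pair of overlapping response elements stood in B2M (144 and 138 bases before the start), in TAP1 (133 and 127 bases), and in TAPBP (20 and 14 bases). Of the 9 members, 8 had at least 1 window in the RefSeq promoter table, which runs from 250 bases before to 50 after a start. The response element was in a window of 5 of the 8 (B2M, PSMB8, TAP1, TAP2, and TAPBP). These 8 had 10 windows, of which 5 held it, against 8.11% of all 35116 windows of this length. The kappaB letters were in 4 of the 8 (HLA-B, PSMB8, TAP1, and TAPBP). By window this was 4 of 10, against 22.9% of all windows. In TAP1 they were in a further window that is not printed here. Other forms of the kappaB element were not searched, so an unmarked window does not show that it has none. TGACG was in 6 of the 10 windows against 24.6%, CCAAT in 5 against 34.6%, and the GC box (GGGCGG) in 8 against 45.0%. By member these were 6, 5, and 6 of the 8. A match describes letters in a window and does not show that a factor binds there.

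HLA-B, a classical heavy chain, had the largest ratio between cell lines among the members, with 8.36 between the line means of H1299 and A549. It stood at 63.2 and 61.2 FPKM in the control and si-MALAT1 libraries of H460, at 87.8 and 81.8 for H1299, and 14.5 and 5.79 for A549. The order was H1299, H460, A549, and the libraries of these lines did not overlap, although H1299 and H460 did not differ in the test between lines below. HLA-C, the other classical chain here, stood at 52.4 and 48.2 FPKM in H460, at 37.9 and 40.3 for H1299, and 27.8 and 16.7 for A549. HLA-B was therefore above HLA-C per length in H460 (ratios of 1.21 and 1.27) and in H1299 (2.32 and 2.03), and below it in A549 (0.522 and 0.346). HLA-E, which shows leader peptides of other class I chains to natural killer cells, varied least of the heavy chains, from 26.3 FPKM in A549 si-MALAT1 to 48.7 in H1299 si-MALAT1. In A549, HLA-E was the most abundant of the 3 chains, at 2.52 and 4.54 times HLA-B. These ratios, and the differences in HLA genes between lines here and below, depend on how reads of these polymorphic genes matched the reference alleles. The alleles of the lines are not analysed here. Of the reference transcripts, 0 of 1437 windows of 100 bases of HLA-B, 0.277% of those of HLA-C, and 0.612% of those of HLA-E occurred in another gene. For TAP2 this share was 34.7%, all of it in 1 further gene model of GENCODE, and it was 0% for the other members. In the deposited annotation, no other gene overlapped TAP2. An effect of the GENCODE model on the TAP2 levels and the ratio of TAP1 to TAP2 below was not tested.

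**Figure D1:**
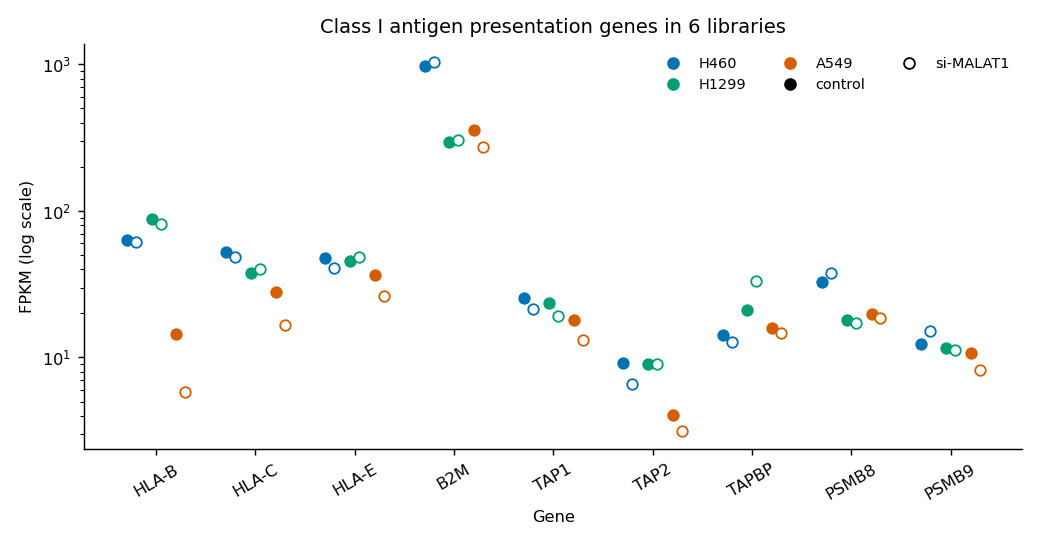
Level of each member in each library, with FPKM on a log axis. Filled circles are control and open circles si-MALAT1 libraries, coloured by cell line; each circle is 1 library. B2M is highest at 273 to 1031 FPKM, and HLA-B in A549 lies apart at 14.5 and 5.79 FPKM.

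B2M, the light chain, was the most abundant member in every library. It stood at 981 and 1031 FPKM in H460, at 296 and 304 for H1299, and 355 and 273 for A549, so that H460 lay above both others, whose libraries overlapped. B2M over the sum of HLA-B, HLA-C, and HLA-E was 6.01 and 6.86 in H460, 1.73 and 1.78 for H1299, and 4.50 and 5.59 for A549. H1299 thus had the least B2M message per heavy chain message among these 3 chains.

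The transporter subunit TAP1 stood at 25.4 and 21.5 FPKM in H460, at 23.6 and 19.1 for H1299, and 18.0 and 13.1 for A549. Its partner TAP2 stood at 9.13 and 6.54 in H460, at 9.09 and 9.02 for H1299, and 4.06 and 3.16 for A549. For both subunits H460 and H1299 overlapped and A549 lay below them. TAP1 exceeded TAP2 per length in all 6 libraries, by a ratio of 2.12 to 4.45. Tapasin (TAPBP) stood at 14.3 and 12.7 FPKM in H460, at 21.1 and 33.0 for H1299, and 15.8 and 14.7 for A549. Its order was H1299, A549, H460, with no overlap in FPKM. On RLE-scaled counts, A549 (3336 and 3099) and H460 (3566 and 3122) overlapped, and these lines did not differ in the test below.

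PSMB8 stood at 32.7 and 37.7 FPKM in H460, at 18.0 and 17.1 for H1299, and 19.7 and 18.7 for A549. PSMB9 stood at 12.4 and 15.1 in H460, at 11.6 and 11.2 for H1299, and 10.8 and 8.20 for A549. PSMB8 replaces PSMB5 and PSMB9 replaces PSMB6 in the immunoproteasome, while PSMB10 replaces PSMB7. The ratio of PSMB8 to PSMB5 was 0.291 and 0.308 in H460, 0.195 and 0.215 for H1299, and 0.126 and 0.132 for A549. The ratio of PSMB9 to PSMB6 was 0.135 and 0.132 in H460, 0.0776 and 0.0910 for H1299, and 0.0528 and 0.0486 for A549. From high to low, both ratios were ordered H460, H1299, A549 with no overlap between the lines, and the control and si-MALAT1 libraries of a line lay close together. PSMB10 to PSMB7 kept another order, with 0.138 and 0.152 in H460, 0.0450 and 0.0351 for H1299, and 0.131 and 0.0999 for A549. Constitutive subunits were thus more abundant than their immune counterparts in every library.

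**Figure D2:**
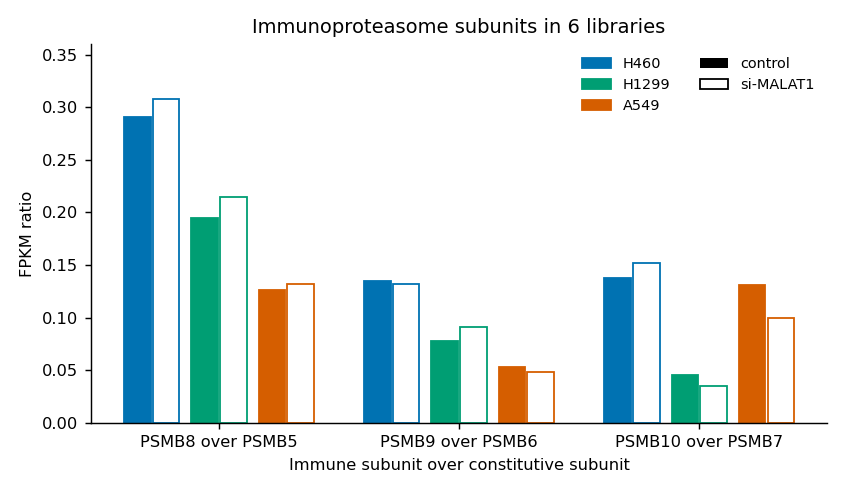
FPKM ratio of each immune proteasome subunit to the constitutive subunit it replaces, 1 bar per library. Filled bars are control and open bars si-MALAT1 libraries, coloured by cell line, and no error bar is drawn since each bar is 1 library. PSMB8 over PSMB5 runs from 0.308 in H460 down to 0.126 in A549.

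Levels were compared between cell lines with edgeR on the counts of all 6 libraries, with treatment as a term, so that the control and si-MALAT1 library of a line served as its pair of samples. A549 was lower than H460 in 8 of the 9 members, where 19.3% of the 19122 genes tested were lower and 18.9% higher. HLA-B was lower by the most, with a log2 difference of -2.94 (adjusted p = 0.00136, edgeR), followed by B2M with -1.92 (adjusted p = 0.000427, edgeR), HLA-C with -1.43 (adjusted p = 0.00377, edgeR), and TAP2 with -1.35 (adjusted p = 0.00159, edgeR). PSMB8 followed with -1.13 (adjusted p = 0.00199, edgeR), and TAP1, PSMB9, and HLA-E lay between -0.84 and -0.73. TAPBP did not pass, with -0.06 (adjusted p = 0.864, edgeR). Without the A549 si-MALAT1 library 5 of the 9 were called lower, and HLA-E (adjusted p = 0.225, edgeR), TAP1 (adjusted p = 0.0898, edgeR), and PSMB9 (adjusted p = 0.272, edgeR) were not. HLA-E also lost its call without the A549 control or either H460 library, and PSMB9 without the A549 control or the H460 si-MALAT1 library.

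Against H1299, A549 was lower in 6 of the 9 members, where 24.5% of all genes tested were lower and 24.4% higher. HLA-B again led with a log2 difference of -3.13 (adjusted p = 0.000804, edgeR), and TAP2 followed with -1.29 (adjusted p = 0.00142, edgeR). HLA-C (-0.82), TAPBP (-0.76), HLA-E (-0.58), and TAP1 (-0.44) passed with adjusted p-values of 0.0214 to 0.0366 by edgeR. B2M, PSMB8, and PSMB9 did not pass, with 0.09, 0.13, and -0.24. Fewer members were called without the A549 control library, or without the si-MALAT1 library of A549 or of H1299. HLA-C, HLA-E, TAP1, and TAPBP each lost their call without either of these si-MALAT1 libraries. HLA-E, TAP1, and TAPBP also lost it without the A549 control. Their log2 differences kept their sign in those fits. Fewer of all genes were called lower in those fits too. The calls of HLA-B and TAP2 held under each of 11 alternatives.

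H1299 was lower than H460 in 3 members and higher in 1, where 26.6% of all genes tested were lower and 26.0% higher. B2M was lower with a log2 difference of -2.01 (adjusted p = 0.000218, edgeR) and PSMB8 with -1.25 (adjusted p = 0.000813, edgeR), and both calls held under each of 11 alternatives. TAP1 was lower with -0.40 (adjusted p = 0.0453, edgeR) and TAPBP higher with 0.71 (adjusted p = 0.0436, edgeR). The TAP1 call was lost under 9 of 11 alternatives, among them leaving out any 1 library, and the TAPBP call under 6, among them leaving out the si-MALAT1 library of any line or the A549 control. HLA-B, HLA-E, TAP2, HLA-C, and PSMB9 did not pass, and the differences of HLA-C (-0.61) and PSMB9 (-0.53) came closest, with adjusted p-values of 0.0521 and 0.0693 by edgeR. The samples of a line were its 2 libraries of different treatment, so the p-values measure the spread between these cultures.

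**Figure D3:**
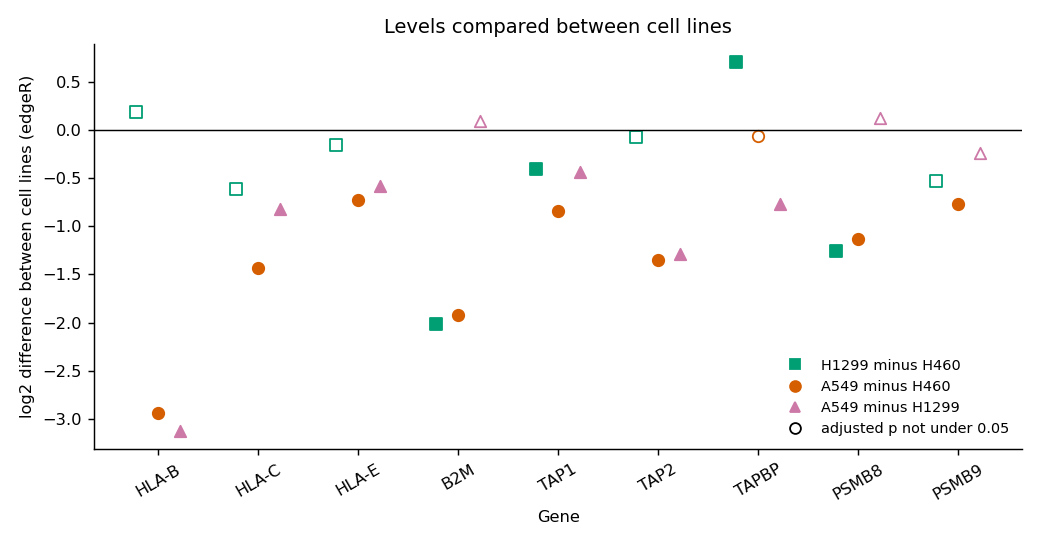
Log2 difference in level between cell lines for each member, from edgeR on read counts. Filled symbols passed an adjusted p under 0.05 and open symbols did not; points are estimates without error bars. HLA-B lies at -2.94 and -3.13 in the comparisons of A549 with H460 and H1299.

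For the change after MALAT1 knockdown, counts were scaled by RLE size factors, 1 was added, and the log2 value of the control was taken from that of si-MALAT1 within a line. Its interval is an exact 95% Clopper-Pearson interval for the split of the reads between both libraries, which covers counting error only. HLA-B went from 7657 to 7007 reads for H460, from 10510 to 8892 for H1299, and from 1059 to 463 for A549. After scaling for depth the log2 fold change was -0.05 (-0.09 to 0.00) in H460, -0.11 (-0.15 to -0.07) in H1299, and -1.34 (-1.50 to -1.18) in A549, where si-MALAT1 was at 0.396 of control. HLA-C went from 6376 to 5537 reads for H460, from 4554 to 4401 for H1299, and from 2037 to 1343 for A549. Its log2 fold change was -0.12, 0.08, and -0.75 (-0.85 to -0.65) in the same order. Both classical chains were thus lower by over 1.5-fold in A549, and within 1.5-fold of control in the other lines. In bulk RNA, fewer cells carrying a message and less message per cell cannot be told apart.

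HLA-E had 9600 and 7797 reads in H460, 9141 and 8819 for H1299, and 4455 and 3505 for A549, with log2 fold changes of -0.22, 0.08, and -0.49. B2M had 75412 and 74250 reads in H460, 22320 and 20582 for H1299, and 16158 and 13874 for A549, with log2 fold changes of 0.06, 0.01, and -0.36 (-0.40 to -0.33). Both were below control in A549 with an interval that left out 0, and neither reached 1.5-fold. The B2M values of H460 and H1299 changed sign with the scaling, to -0.07 on log2(TPM + 1) in H460 and to -0.02 with TMM in H1299.

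TAP1 was below control in all 3 lines, with 5346 and 4289 reads in H460, 4906 and 3594 for H1299, and 2303 and 1801 for A549. Its log2 fold changes were -0.24 (-0.29 to -0.18), -0.32 (-0.38 to -0.26), and -0.50 (-0.59 to -0.41), the narrowest spread over lines among the members that were below control in each. TAP2 had 3942 and 2644 reads in H460, 3755 and 3356 for H1299, and 1061 and 871 for A549. Its log2 fold changes were -0.49 (-0.57 to -0.42), -0.03 (-0.10 to 0.04), and -0.43 (-0.56 to -0.30), and on log2(TPM + 1) the H1299 value was 0.04. TAPBP had 3857 and 3191 reads in H460, 5407 and 7904 for H1299, and 2534 and 2603 for A549, with log2 fold changes of -0.19, 0.68 (0.63 to 0.73), and -0.11. It was the only member more than 1.5-fold higher in any line.

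PSMB8 had 3051 and 3317 reads in H460, 1672 and 1427 for H1299, and 1086 and 1131 for A549. The log2 fold change was 0.20 (0.13 to 0.27), -0.10 (-0.20 to 0.01), and -0.09 (-0.21 to 0.04). PSMB9 had 995 and 1146 reads in H460, 922 and 804 for H1299, and 524 and 434 for A549. It had a log2 fold change of 0.29 (0.16 to 0.41), -0.07 (-0.20 to 0.07), and -0.42 (-0.60 to -0.23). Both immune subunits were above control in H460 and below it in the other lines, where the interval left out 0 only for PSMB9 in A549.

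**Figure D4:**
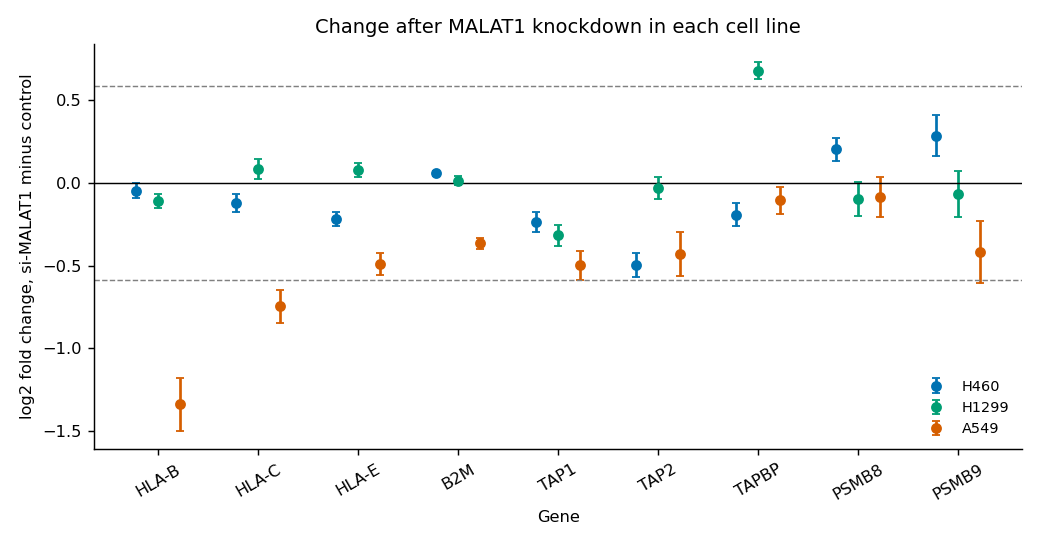
Log2 fold change of each member in each cell line, si-MALAT1 minus control, from RLE-scaled read counts. Points are 1 pair of libraries, bars are exact 95% counting intervals, and dashed lines mark 1.5-fold. HLA-B in A549 lies at -1.34, and TAPBP in H1299 at 0.68.

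In A549, 2 of the 9 members were lower by at least 1.5-fold and 0 higher, against 11.4% lower and 11.5% higher among all 17834 genes with reads in each library. In H1299, 0 were lower and 1 higher, against 11.4% and 11.7% of all genes. In H460, 0 were lower and 0 higher, against 10.3% and 9.50%. A log2 fold change of 1.5 in either direction was reached by 0 members in any line. The share of all genes at that larger threshold was not counted, so this 0 has no background beside it. The count of members below 0 was 6 in H460, 5 in H1299, and 9 in A549, where 48.1%, 48.1%, and 49.3% of all genes were below 0. The median log2 fold change of the members was -0.12 in H460, -0.03 in H1299, and -0.43 in A549, beside 0.02, 0.02, and 0.01 for all genes. The 8 members on chromosome 6 include close neighbours, so that the 9 genes are not independent. In A549, the keratins KRT8 and KRT18 were lower along with these genes, with log2 fold changes of -1.16 and -1.23, while the 5 epithelial markers together went from 3477 to 1555 FPKM. Of these 5, 2 were lower and 2 higher by at least 1.5-fold. Their part in the result was not tested.

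Over the 3 cell lines, 0 members passed the paired edgeR test, in which 0.00523% of 19122 genes were called lower (1 gene, MALAT1, adjusted p = 0.0381) and 0 higher, while 2863 genes had an unadjusted p under 0.05. TAP1 had the smallest p of the members, with a mean log2 fold change of -0.35 ± 0.13 (SD, n = 3 cell lines) and an adjusted p of 0.214 by edgeR. TAP2 was at -0.32 ± 0.25 (adjusted p = 0.317, edgeR), and HLA-B at -0.50 ± 0.73 (adjusted p = 0.448, edgeR), and both were also lower in 3 of 3 lines. The mean exceeded the SD only for TAP1 and TAP2. HLA-C was at -0.26 ± 0.43, HLA-E at -0.21 ± 0.29, B2M at -0.10 ± 0.23, TAPBP at 0.13 ± 0.48, PSMB8 at 0.01 ± 0.17, and PSMB9 at -0.07 ± 0.35, with adjusted p-values of 0.515 to 0.978 by edgeR. DESeq2, which the methods name, called 592 genes lower and 569 higher (4.76% and 4.57% of 12449), and 0 members, the closest being TAP1 with an adjusted p of 0.0636. Adjusted p of TAP1 ranged from 0.0636 to 1.00 over the alternatives. An exact sign-flip test over 3 pairs cannot give a p below 0.25. The paired edgeR fit has 2 residual degrees of freedom.

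Genes that serve the pathway beside the members were counted in lists. Of 8 further heavy chains and loading factors, 7 had reads in every library, and their median log2 fold changes were 0.11 in H460, 0.16 in H1299, and 0.11 in A549. PDIA3, which takes part in peptide loading with tapasin, went from 43045 to 30365 reads for H460, from 18547 to 13789 for H1299, and from 12258 to 10398 for A549. Its log2 fold changes were -0.42, -0.30, and -0.38, with an adjusted p of 0.194 by edgeR and of 0.00764 by DESeq2. ERAP1, which trims peptides in the endoplasmic reticulum, went the other way, with log2 fold changes of 0.25, 0.79, and 0.51 and adjusted p-values of 0.191 by edgeR and 0.0184 by DESeq2. HLA-G was listed at 745 and 0 reads in H460, 0 and 148 for H1299, and 0 and 0 for A549, and no fold change is given for it.

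Of the 6 further proteasome genes, 0 were below control in H460, and 6 of 6 were below it in H1299 and in A549, on RLE-scaled counts. Of all genes, 48.1%, 48.1%, and 49.3% were below 0 in H460, H1299, and A549. The tallies of the 6 genes depended on the scaling and on values near 0, since the intervals of PSME2 in H460 and PSME1 in H1299 included 0. On TPM, PSME2 (147 and 135) and PSMB5 (152 and 151) were below control in H460, and PSME1 (78.7 and 82.1) was above it in H1299. The medians of the 6 genes were 0.23, -0.25, and -0.31. In A549, 1 gene was lower by at least 1.5-fold, against 11.4% of all genes. It was PSME2, a subunit of the interferon-induced PA28 activator. Its log2 fold changes were 0.01 in H460, -0.55 in H1299, and -0.83 (-0.90 to -0.77) in A549. The constitutive PSMB5, PSMB6, and PSMB7 had the same sign as the immune PSMB10 in each line on RLE-scaled counts. No gene of the list passed the paired test in edgeR or in DESeq2.

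Among 20 transcription factors and receptors that control class I genes, 0, 1, and 3 were lower by at least 1.5-fold in H460, H1299, and A549. Higher by as much were 0, 2, and 0. The shares of all genes were 10.3%, 11.4%, and 11.4% lower and 9.50%, 11.7%, and 11.5% higher. The median log2 fold changes of the 20 genes were 0.00, 0.10, and -0.05. NLRC5, the transactivator of class I genes, had 1220 and 1336 reads in H460, 334 and 429 for H1299, and 172 and 219 for A549. It was above control in each line, with log2 fold changes of 0.21, 0.49, and 0.20 and an adjusted p of 0.434 by edgeR. The A549 interval (-0.09 to 0.50) included 0. IRF1, another interferon-induced activator of these genes, had log2 fold changes of -0.08, -0.53, and -0.21 and an adjusted p of 0.400 by edgeR. The H460 interval (-0.24 to 0.08) included 0. In FPKM, IRF1 went up from 2.88 to 2.93 in H460 and from 6.89 to 7.07 in A549.

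**Figure D5:**
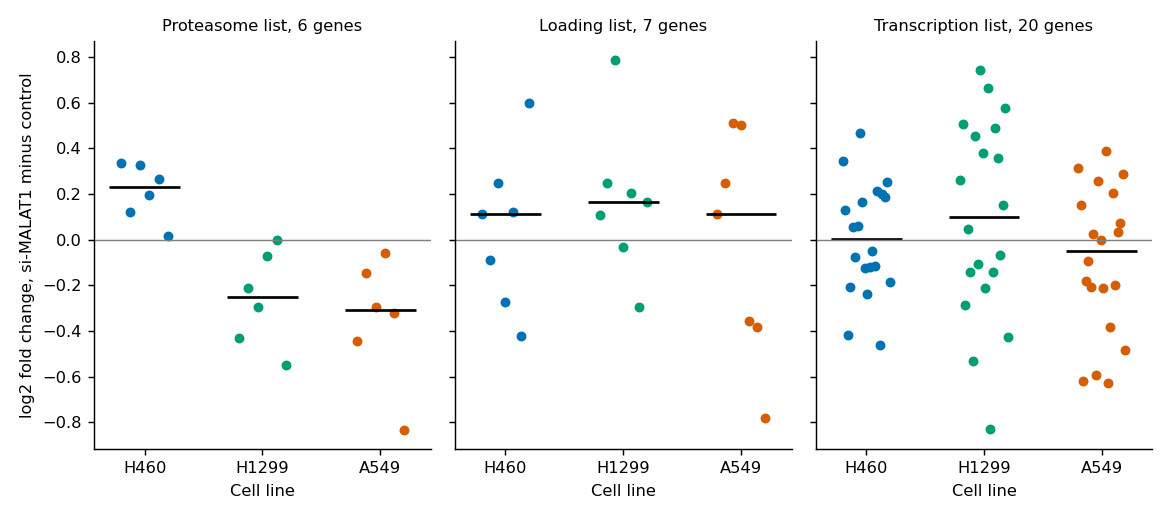
Log2 fold change, si-MALAT1 minus control, of single genes (dots) in lists of proteasome, loading, and transcription genes, by cell line. Black bars are list medians. The proteasome medians are 0.23 in H460, -0.25 in H1299, and -0.31 in A549.

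Of 12 class I-like proteins and ligands of natural killer cell receptors, 10 had reads in every library, with medians of 0.15, 0.18, and 0.38 in H460, H1299, and A549. MICB, a stress-induced ligand of the receptor NKG2D, had 480 and 1023 reads in H460, 5008 and 5354 for H1299, and 594 and 1085 for A549, with log2 fold changes of 1.17, 0.23, and 0.72. CD274, which encodes the checkpoint ligand PD-L1, had 5352 and 2339 reads in H460, 75 and 72 for H1299, and 31 and 59 for A549. MHC class II was nearly absent, with CD74, its invariant chain, at 0 reads in all 6 libraries, while HLA-DMB had 1500 and 1392 reads in A549. None of these lists held a gene called by edgeR in the paired test.

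The genes whose 3 log2 fold changes lay nearest to the medians of the members were CBLL1, PKD1L2, VAC14, ZNF646, ABCB8, FLRT2, AKR1B10, RNF181, CPSF2, and CAAP1. Their Euclidean distances on the log2 scale ran from 0.0444 to 0.0724, among 14455 genes with a mean of at least 50 reads, over 3 cell lines. CBLL1, for instance, had log2 fold changes of -0.12, -0.07, and -0.45.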

How the data were processed

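Total RNA from H460, H1299, and A549 cells, 1 control and 1 si-MALAT1 library each, was depleted of ribosomal RNA and sequenced as stranded libraries. The authors trimmed reads, aligned them to hg38 with HISAT (HISAT2 2.1.0 in the submitters' processing notes), and estimated abundances with StringTie, listed as 1.3.4b in those notes and as another version in the methods. The authors deposited read counts, which are whole numbers without normalization, and FPKM and TPM, which they scaled for length and depth. Another 18 columns of per-sample values belong to samples not analysed here.

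Groups came from the sample labels. Counts were tested with edgeR 4.0.16 (TMM, filterByExpr by treatment, quasi-likelihood test, Benjamini-Hochberg, adjusted p under 0.05) with cell line as a block, and with DESeq2 1.42.0 as the alternative, in R 4.3.3. Fold changes within a line used RLE size factors, a pseudocount of 1, and the 17834 genes with no count of 0. The study words its threshold both as a fold and as a log2 fold change of 1.5, and a fold of 1.5 was used. Libraries of a line were paired because they share the cell line, and their deviations correlated at 0.894, 0.922, and 0.884. The lines are not replicate cultures, so p-values measure the spread between these samples. Intervals cover counting error only, as molecules were not tagged. Levels between genes were compared in FPKM and TPM entered only as an alternative. Positions came from the deposited annotation and promoters from RefSeq, GRCh38.p14. Scripts were tested on simulated data. Python 3.11.15 with numpy 2.4.6, scipy 1.17.1, pandas 2.3.3, and matplotlib 3.10.9 was used.

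The members and lists were chosen with earlier results of these data known. A few listed genes are not reported here. Genes named are the members, MALAT1, single genes of the lists, marker genes, and the 10 genes nearest to the medians of the members. Alternatives were another scaling, tool, filter, pseudocount, or block, and leaving out libraries.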

Additional observations from a re-analysis of the deposited data

Results flagged for a closer look

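Each result here moved one way in one cell line and the other way in another, and for the single genes the counting intervals lay on either side of 0. With 1 library per line and condition the difference between lines was not tested. For HLA-C the log2 fold change was 0.08 in H1299 and -0.75 in A549, a difference of 0.83. For HLA-E it was 0.08 in H1299 and -0.49 in A549, a difference of 0.57. For B2M it was 0.06 in H460 and -0.36 in A549, a difference of 0.42, and the H460 value changed sign on log2(TPM + 1). TAPBP was at 0.68 in H1299 and -0.19 in H460, a difference of 0.87. PSMB9 was at 0.29 in H460 and -0.42 in A549, a difference of 0.70. The median of the 6 further proteasome genes was 0.23 in H460 and -0.31 in A549, a difference of 0.54, on RLE-scaled counts. The interval of PSME2 in H460 included 0, and PSME2 (147 and 135) and PSMB5 (152 and 151) were below control there on TPM.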

How the results depend on the processing

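The counts of members lower or higher by 1.5-fold in each line were the same under TMM scaling, log2(TPM + 1), and a pseudocount of 10. The filter on zeros removed no member, so leaving it out could not change these counts. For all genes, log2(TPM + 1) gave 236 higher and 803 lower genes in H460, 1030 and 778 for H1299, and 670 and 896 for A549, and no filter on zeros gave 4673 and 4426, 5507 and 5256, and 5021 and 4458. The cause was not tested for TPM. The mean immunoproteasome ratios moved by less than their SD when counts over exon length replaced FPKM.

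In the paired test, DESeq2 called 569 genes higher and 592 lower, no filter called 0 and 0, and without the replicate block 0 lower genes were called, MALAT1 having an adjusted p of 1.00 by edgeR. Leaving out a cell line gave 0 to 51 higher and 0 to 112 lower genes, the most without H460, and MALAT1 was not called without H1299 or A549. No member was called under any alternative of the paired test, and some near 0 changed sign. PSMB8, just below 0 in edgeR, was at 0.00440 with DESeq2, 0.00420 with RLE in edgeR, 0.0460 without the replicate block, and -0.106 to 0.0554 with a line left out. With a line left out, B2M ranged from -0.189 to 0.0215, PSMB9 from -0.252 to 0.0950, and TAPBP from -0.155 to 0.276.

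Between lines, leaving out 1 library or line gave 1680 to 4286 higher and 1883 to 4377 lower genes for A549 against H460, with 5 to 8 members lower. For A549 against H1299 it gave 2810 to 5467 higher and 3020 to 5836 lower genes, with 2 to 6 members lower. Members higher in H1299 than in H460 were 0 with no filter and 0 to 1 with libraries left out. Of 297 member values between lines, 39 lost a call, 6 gained one, and 10 changed sign, all 10 from leaving out a library and none past the threshold in edgeR. The log2 differences that changed sign ranged from -0.112 to 0.534 for HLA-B, -0.369 to 0.0700 for HLA-E, and -0.283 to 0.154 for TAP2 (H1299 against H460). They ranged from -0.295 to 0.193 for TAPBP (A549 against H460), and from -0.0817 to 0.297 for B2M and -0.482 to 0.0228 for PSMB9 (A549 against H1299). Where 1 library of a line was left, it was assumed to vary like the others. Depth limits the members little, with 434 or more reads in each library, while 1 library per line and condition limits every change.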
